A study of Homo sapiens with 24 samples.

Results

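GULP1, TTC12, SLCO4A1, LGI2, HKDC1 and ARSI are 6 genes whose signal was lowered early after induction of a hairpin against OTX2. They were picked by name from the hairpin arrays, because their signal was lower by 16 to 24 h or was among the most strongly lowered later. They make up 6 of 13903 genes tested and are read by 17 of the 54675 probe sets on the array, of which 15 passed the filter on dim probe sets. The hairpin arrays chose the genes, so their changes after induction are given as a description with no test, and tests are kept to the control arrays and to the arrays at 8 h.

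The cells were D425, an established human medulloblastoma line, and total RNA of each sample went onto its own Affymetrix U133 Plus 2.0 array. The shOTX2 cells carry a doxycycline-inducible short hairpin RNA against OTX2, and 3 independent time courses gave 18 arrays. The control cells gave 1 time course of 6 arrays. What the control cells carry is not used here beyond the word control in the labels. Both arms were harvested at 0, 8, 16, 24, 48 and 96 h after doxycycline, so all groups but 0 h had received the drug, and each course is compared with its own 0 h array. Values are MAS5 signals, scaled by the authors to the same trimmed mean on every array, and changes are differences of log2(signal + 16), a scale that understates the change of dim genes. In these bulk samples, fewer cells that express a gene and less RNA per cell cannot be told apart.

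OTX2 encodes a homeodomain transcription factor of the developing forebrain, midbrain, retina and cerebellum, and it is highly expressed in most medulloblastomas outside the SHH group. Its homeodomain belongs to the bicoid class, which binds DNA at TAATCC and similar words built on the core TAAT. The 6 genes have unlike roles. GULP1 is a cytoplasmic adaptor that links engulfment receptors such as MEGF10, LRP1 and the stabilins to the uptake of dying cells. LGI2 is a secreted protein of the leucine-rich glioma-inactivated family, whose members bind ADAM22, ADAM23 and ADAM11 at neuronal surfaces, and a defect of LGI2 causes a juvenile epilepsy in dogs. SLCO4A1 is an organic anion transporter that takes up thyroid hormones and prostaglandins. HKDC1 is a hexokinase family member that phosphorylates glucose with low activity, ARSI belongs to the arylsulfatases, which remove sulfate groups from their substrates, and TTC12 is a cytoplasmic factor needed to assemble the dynein arms of motile cilia.

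OTX2 itself, the targeted gene, did not pass the test at 96 h. The brighter of its probe sets read 3842, 4398 and 4324 at 96 h, against 4417, 4839 and 4719.5 at 0 h, in shOTX2 courses 1, 2 and 3. All 3 courses were lower than their own 0 h array, and the difference was -0.15 ± 0.09 (SE, log2, limma adjusted p = 0.172). The other OTX2 probe set averaged 3295 ± 275 at 96 h, against 3027 ± 155 at 0 h (SD, n = 3 each), so the probe sets differ in direction at 96 h. At 8 h both were lower than the course's own 0 h array in all 3 shOTX2 courses: the brighter averaged 4112 ± 187 at 8 h, against 4659 ± 217 at 0 h, and the other averaged 2437 ± 22.2 at 8 h, against 3027 ± 155 at 0 h. Neither control value was lower at 8 h than at 0 h. The arms at 8 h differed by -0.35 ± 0.12 on the brighter probe set (SE, log2, limma adjusted p = 0.326) and by -0.50 ± 0.14 on the other (limma adjusted p = 0.202 over all kept probe sets), neither called. The control signal was 5357 at 96 h, against 4964 at 0 h, on the brighter probe set. Where these probe sets lie relative to the hairpin's target is not given in the sources used here, so OTX2 does not check the labels of the arms.

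Promoter sequence was at hand for 5 of the 6 genes, and the 3 that hold the homeodomain core are shown because OTX2 is the targeted factor. Each is the 250 bases before the RefSeq start site on GRCh38.p14, written 5′ to 3′ on the gene's strand, with the core TAAT or its reverse complement ATTA in capitals. GULP1 is at chr2:188291624-188291873 on the plus strand, LGI2 at chr4:25030947-25031196 on the minus strand and HKDC1 at chr10:69220082-69220331 on the plus strand.
GULP1: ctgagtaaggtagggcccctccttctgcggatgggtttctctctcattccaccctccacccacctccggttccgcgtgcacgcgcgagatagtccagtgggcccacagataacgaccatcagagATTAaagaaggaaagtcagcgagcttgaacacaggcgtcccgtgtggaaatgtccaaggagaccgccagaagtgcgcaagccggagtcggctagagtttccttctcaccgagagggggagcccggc
LGI2: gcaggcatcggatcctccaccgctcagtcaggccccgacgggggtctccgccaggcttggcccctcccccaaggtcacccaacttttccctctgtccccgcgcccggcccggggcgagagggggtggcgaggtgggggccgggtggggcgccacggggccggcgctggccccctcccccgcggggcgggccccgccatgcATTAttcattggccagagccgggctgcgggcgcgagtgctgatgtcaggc
HKDC1: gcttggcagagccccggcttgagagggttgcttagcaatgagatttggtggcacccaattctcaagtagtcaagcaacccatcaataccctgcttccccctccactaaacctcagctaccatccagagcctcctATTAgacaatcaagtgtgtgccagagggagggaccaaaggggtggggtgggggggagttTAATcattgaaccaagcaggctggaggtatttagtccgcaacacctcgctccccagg
No promoter held TAATCC or its reverse complement GGATTA, a word present in 5.62% of 35116 promoters of the same length. GULP1 held the related AGATTA, the reverse complement of TAATCT, 128 bases before its start site, and its capitals are the end of that word. TAATCT or AGATTA occurs in 6.41% of promoters. The core lay 50 bases before the start site of LGI2, and 116 and 57 bases before that of HKDC1. TAAT or ATTA, which lies within both longer words, occurs in 47.4% of promoters. The windows of TTC12 and ARSI held none of these words, which says only that the letters are not in these windows.

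**Figure D1:**
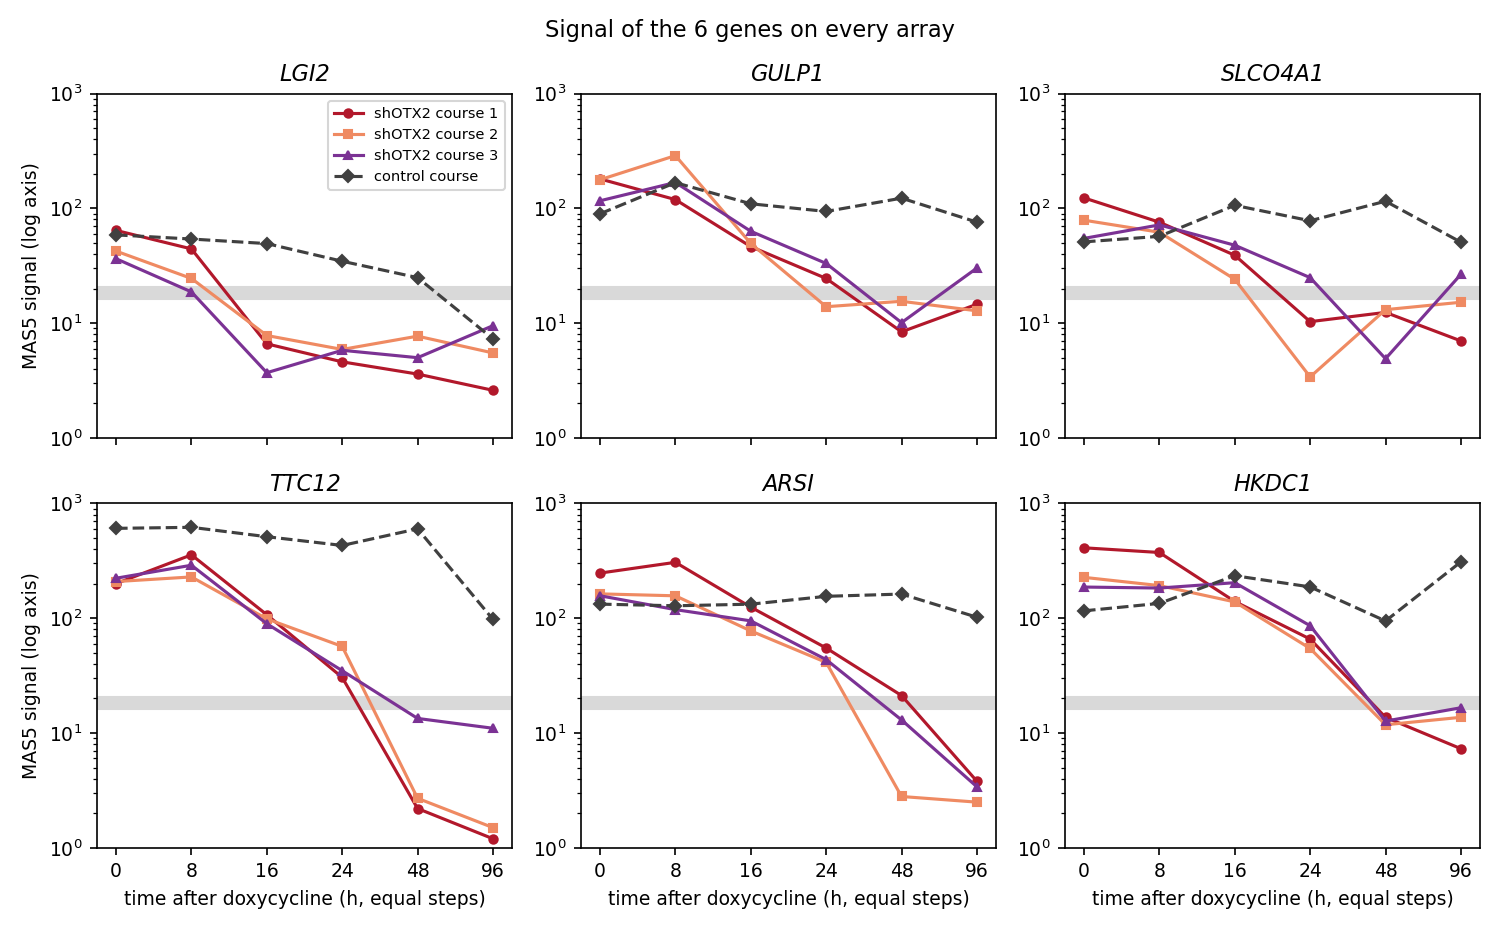
MAS5 signal (log axis) at 0, 8, 16, 24, 48 and 96 h after doxycycline (equal steps) for the probe set that represents each gene, with 1 coloured solid line per shOTX2 course and a dashed line for the control course. The grey band is the range of array medians, 16.3 to 20.6: at 96 h the shOTX2 lines of TTC12, LGI2, HKDC1 and ARSI end at or under it, while the control line ends under it in LGI2 alone.

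LGI2 was the earliest to be lowered, and it was dim from the start. Its signal in shOTX2 courses 1, 2 and 3 was 64.2, 42.4 and 36.4 at 0 h, and 44.3, 24.5 and 18.7 at 8 h. It was 6.6, 7.8 and 3.7 at 16 h and 4.6, 5.9 and 5.8 at 24 h. It was 3.6, 7.7 and 5.0 at 48 h and 2.6, 5.5 and 9.5 at 96 h. All 3 courses were already lower at 8 h than at 0 h, and from 16 h on every shOTX2 array lay under the lowest 0 h array and under its own array's median. The mean at 16 h corresponds to a log2 change of -1.51 ± 0.21 (SE), and at 96 h to -1.53 ± 0.21. LGI2 passed the filter through its 0 and 8 h and control arrays only, and it was chosen for its fall. Its low signal on the other arrays is thus a description and no support. From its 0 h signal, the largest fall that log2(signal + 16) allows is 2.33, 1.87 and 1.71 in courses 1, 2 and 3, and 97.4% of its largest mean fall was reached at 16 h. The control course of LGI2 read 58.7, 54.0, 49.3, 34.6, 24.9 and 7.3 from 0 to 96 h, each time lower than the one before.

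GULP1 was lower by 16 h after a higher signal at 8 h in 2 of 3 courses. Its signal in shOTX2 courses 1, 2 and 3 was 180.3, 177.4 and 116.3 at 0 h, and 119.1, 287.8 and 167.9 at 8 h. It was 46.4, 49.4 and 63.1 at 16 h and 24.5, 13.9 and 33.1 at 24 h. It was 8.4, 15.5 and 10.1 at 48 h and 14.6, 12.8 and 30.2 at 96 h. No shOTX2 array from 16 h on reached the lowest 0 h array, and the group mean at 48 h was 7.17% of that at 0 h. The log2 changes at 24, 48 and 96 h were -2.13, -2.66 and -2.32, and courses 1 and 3 had a higher signal at 96 h than at 48 h. In the control course GULP1 read 89.6, 167.3, 109.5, 93.9, 122.6 and 75.8 from 0 to 96 h, without a steady direction.

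SLCO4A1 had the most uneven courses. Its signal in shOTX2 courses 1, 2 and 3 was 123.2, 78.8 and 54.7 at 0 h, and 75.7, 61.9 and 71.7 at 8 h. It was 39.0, 24.1 and 47.7 at 16 h and 10.3, 3.4 and 24.9 at 24 h. It was 12.4, 13.1 and 4.9 at 48 h and 7.0, 15.2 and 26.6 at 96 h. Courses 1 and 2 were over 1 log2 below their own 0 h array at 16 h, while course 3 had a change of -0.79 at 24 h, -1.76 at 48 h and -0.73 at 96 h. The log2 change of the group mean was -1.83 ± 0.29 (SE) at 24 h and -1.64 ± 0.29 at 96 h. SLCO4A1 in control cells read 51.0, 57.0, 106.2, 77.9, 115.3 and 50.7 from 0 to 96 h, with its highest values at 16 and 48 h.

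TTC12, with ARSI and HKDC1, had the largest log2 changes of the 6 at 96 h. Its signal in shOTX2 courses 1, 2 and 3 was 200.2, 208.5 and 222.9 at 0 h, and 356.4, 228.8 and 289.3 at 8 h. It was 107.2, 98.7 and 89.5 at 16 h and 30.5, 56.8 and 34.9 at 24 h. It was 2.2, 2.7 and 13.4 at 48 h and 1.2, 1.5 and 11 at 96 h. All 3 courses were higher at 8 h than at 0 h, all were lower at 16 h, and the group mean at 96 h was 2.17% of that at 0 h. The log2 change was -2.02 at 24 h, -3.39 at 48 h and -3.49 ± 0.22 (SE) at 96 h. The 96 h signals lie under the array medians, so the order of TTC12 and ARSI is not resolved there. TTC12 in control cells read 606.2, 619.0, 512.7, 430.1, 600.5 and 97.7 from 0 to 96 h. The control signal stayed over 400 to 48 h and was low only on the 96 h array, and at every time it was above all 3 shOTX2 arrays.

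ARSI was lowered later and evenly across courses. Its signal in shOTX2 courses 1, 2 and 3 was 247.2, 162.9 and 156.9 at 0 h, and 306.7, 156.7 and 118.8 at 8 h. It was 124.8, 77.5 and 94.8 at 16 h and 55.0, 41.2 and 43.6 at 24 h. It was 21.2, 2.8 and 13.0 at 48 h and 3.8, 2.5 and 3.4 at 96 h. Each course stepped down at every time from 8 to 96 h, and the group mean at 96 h was 1.71% of that at 0 h. The log2 change was -1.69 at 24 h, -2.88 at 48 h and -3.39 ± 0.28 (SE) at 96 h. Control cells gave ARSI signals of 132.6, 128.3, 132.5, 155.1, 162.3 and 102.0 from 0 to 96 h, so its range was 102.0 to 162.3.

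HKDC1 had the latest half-fall time of the 6 in course 3, and its control course ended higher than it began. Its signal in shOTX2 courses 1, 2 and 3 was 410.4, 226.9 and 186.8 at 0 h, and 373.6, 192.3 and 183.1 at 8 h. It was 139.8, 138.7 and 203.9 at 16 h and 65.8, 54.5 and 86.0 at 24 h. It was 13.7, 11.8 and 12.7 at 48 h and 7.3, 13.7 and 16.6 at 96 h. At 16 h courses 1 and 2 were under every 0 h array and course 3 was not, and from 24 h on the groups did not overlap. The log2 changes at 16, 24, 48 and 96 h were -0.66, -1.72, -3.26 and -3.29. HKDC1 in control cells read 115.9, 134.6, 234.5, 187.3, 94.6 and 309.5 from 0 to 96 h, so its lowest and highest values were its last 2.

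Across the 6 genes, the signal was lower than in the same course's 0 h array in 11 of 18 gene and course pairs at 8 h, 17 of 18 at 16 h, and 18 of 18 at 24, 48 and 96 h. The 1 exception at 16 h was HKDC1 in course 3. Of the 6 genes, the number lower than at 0 h in the control course was 2, 3, 2, 3 and 5 at 8, 16, 24, 48 and 96 h. All 3 shOTX2 arrays lay under all 3 shOTX2 0 h arrays for 5 of 6 genes at 16 h and for all 6 at 24 and 96 h. At 16, 24 and 96 h the same held for 7.17%, 9.99% and 25.4% of all tested genes, and these counts describe how the genes were chosen. limma called 1.02% of genes changed at 16 h (0.388% lower), 6.14% at 24 h (2.68% lower), 33.3% at 48 h (17.0% lower) and 43.6% at 96 h (22.5% lower) at an adjusted p under 0.05.

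Ranks over all genes describe how the 6 genes were chosen and do not test them. Ranked over all 13903 tested genes by the mean change at 24 h, GULP1 ranked 1, TTC12 2, SLCO4A1 4, HKDC1 6, ARSI 8 and LGI2 15 from the largest fall. The genes between them were ADAMTS1 at -1.92, TRPM3 at -1.79 and TIMP3 at -1.70, and GASK1B, at -1.69, came next after ARSI. LGI2, at -1.55, stood between ARHGAP29 at -1.55 and SLC60A1 at -1.52. At 96 h TTC12 ranked 7, ARSI 9 and HKDC1 10, whereas GULP1 ranked 95, SLCO4A1 351 and LGI2 415. AQP1, at -3.71, preceded TTC12, and ADAM28, at -3.49, followed it. ADAMTS8, at -3.28, followed HKDC1. GULP1 stood between NUSAP1 and CLU, all at -2.32. SLCO4A1, at -1.64, stood between SGK1 at -1.65 and EXPH5 at -1.64. LGI2 stood between EIF4EBP1 and RNF144B, all at -1.53. Its largest possible fall on this scale is 2.33, 1.87 and 1.71 in courses 1, 2 and 3, which limits its rank at 96 h.

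**Figure D2:**
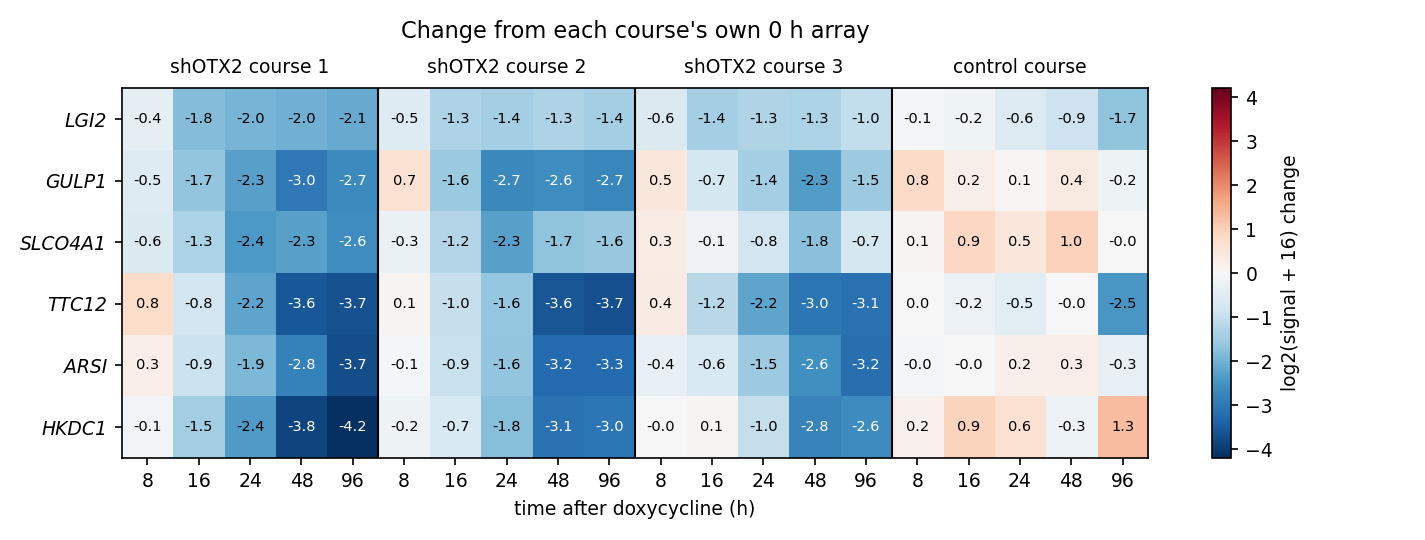
Change in log2(signal + 16) from the same course's own 0 h array for each gene (rows) at 8, 16, 24, 48 and 96 h, in the 3 shOTX2 courses and then the control course; blue is lower and red is higher than at 0 h. At 24 h all 18 shOTX2 cells lie between -2.69 and -0.79, and at 96 h the control cells are low for TTC12 and LGI2 and high for HKDC1.

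The order of onset was set by the first time at which a gene was at least 1 log2 below its own 0 h array and stayed so. LGI2 had its onset at 16 h in all 3 courses. GULP1 had it at 16, 16 and 24 h in courses 1, 2 and 3, and TTC12 at 24, 24 and 16 h. SLCO4A1 had it at 16 h in courses 1 and 2 and had no lasting onset in course 3. HKDC1 had it at 16, 24 and 48 h, and ARSI at 24 h in all 3 courses. Onset had thus come by 16 h in 4 genes of course 1, 3 of course 2 and 2 of course 3, which is 9 of 18 pairs, and by 24 h in 16 of 18. An onset by 16 h in all 3 courses was found in 5 of all tested genes, 0.036%, namely LGI2, ADAMTS1, CEMIP2, GASK1B and TRPM3. An onset by 24 h in all 3 courses was found in 21 genes, 0.151%, and LGI2, GULP1, TTC12 and ARSI were among them. In the control course TTC12 and LGI2 had an onset at 96 h and the other 4 genes had none.

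A finer order came from the half-fall time, the interpolated time at which a course reached the midpoint between its 0 h value and its lowest value on the log2(signal + 16) scale. It was 10.2 ± 1.27 h for LGI2 (SD, n = 3 courses, as for the others), 17.1 ± 3.41 h for GULP1 and 19.0 ± 6.24 h for SLCO4A1. It was 22.5 ± 3.84 h for TTC12, 24.2 ± 0.666 h for ARSI and 24.5 ± 4.38 h for HKDC1. LGI2 came first in every course, and its course range of 9.09 to 11.6 h lay below that of GULP1, 14.9 to 21.0 h. Every later pair of neighbours in this order overlapped in course ranges, so neighbours from GULP1 to HKDC1 are not resolved beyond the spread between courses. GULP1 came before ARSI and HKDC1 in every course, and its range lay below their lowest values of 23.8 h and 21.5 h. SLCO4A1 and TTC12 overlapped with all but LGI2. These separations hold for the probe set that represents each gene and not for all others. HKDC1 220585_at ranged from 15.9 to 30.3 h and GULP1 223837_at from 13.3 to 35.6 h. HKDC1 237323_at, from 7.87 to 24.4 h, and GULP1 215913_s_at, from 11.2 to 18.5 h, overlapped with LGI2. Course 3 was the slowest course for GULP1, SLCO4A1, ARSI and HKDC1 and the fastest for LGI2 and TTC12. With arrays 8 h apart up to 24 h and then at 48 and 96 h, times past 24 h rest on a 24 h gap. The half-fall time in the control course was 71.9 h for TTC12 and 45.8 h for LGI2, and the other 4 genes did not fall by 1 log2 there.

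**Figure D3:**
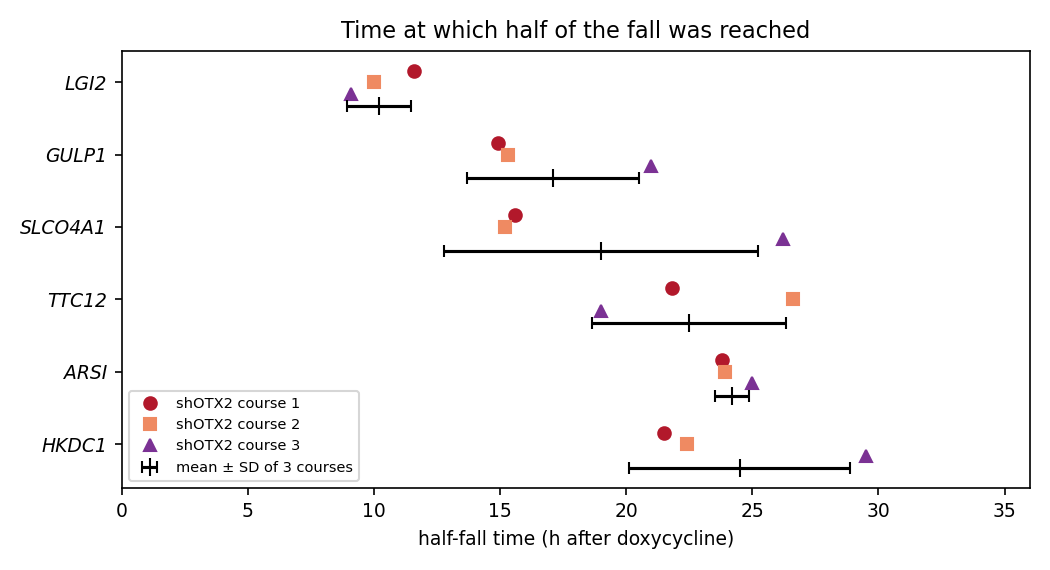
Half-fall time (h after doxycycline) of each gene in shOTX2 courses 1, 2 and 3 (coloured symbols), with the mean and SD of the 3 courses in black beneath. On the probe set that represents each gene, LGI2 stands apart at 9.09 to 11.6 h, and the other 5 genes overlap with their neighbours between 14.9 and 29.5 h.

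The control course, which did not choose the genes, was used to ask whether they change over time in control cells. These cells received doxycycline too, so time in culture and the drug cannot be told apart here. The test set 48 and 96 h against 0 and 8 h. TTC12 averaged lower late, by -1.25 ± 0.27 (SE, log2, limma adjusted p = 0.308), and LGI2 by -1.23 ± 0.26 (limma adjusted p = 0.308). Neither passed the threshold, and 0 of 6 genes were called, beside 0.0% of all genes (0 of 13903 by limma, with 1108 at an unadjusted p under 0.05). With the time course as a replicate block, 88 genes were called, TTC12 (limma adjusted p = 0.0267) and LGI2 (limma adjusted p = 0.0413) among them. With the course as a random block instead, TTC12 was called (limma adjusted p = 0.0454) and LGI2 was not (limma adjusted p = 0.0511). The TTC12 value rests on the 96 h array: it was -0.03 without that array and -2.47 without the 48 h array, where it was called (limma adjusted p = 0.0129). LGI2 was -0.82 without the 96 h array and -1.63 without the 48 h array. GULP1 differed by -0.30 ± 0.33, SLCO4A1 by 0.42 ± 0.36, HKDC1 by 0.43 ± 0.33 and ARSI by -0.01 ± 0.35, none called. Each control group is 1 array and was assumed to vary like the shOTX2 groups.

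At 96 h against 0 h the arms can be set side by side for each gene. The change of LGI2 was -2.11 to -1.04 over the shOTX2 courses and -1.68 in the control course, so the control value lay within the shOTX2 range. That of TTC12 was -3.68 to -3.15 in shOTX2 cells and -2.45 in control cells. That of ARSI was -3.73 to -3.16 in shOTX2 cells and -0.33 in control cells. That of GULP1 was -2.75 to -1.52 in shOTX2 cells and -0.20 in control cells, and that of SLCO4A1 -2.60 to -0.73 in shOTX2 cells and -0.01 in control cells. That of HKDC1 was -4.19 to -2.64 in shOTX2 cells and 1.3 in control cells, in opposite directions, while its probe set 237323_at was lower in control cells too (-0.25). These differences rest on the contrast that chose the genes and on 1 control array per time, and were not tested.

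The arms were compared directly at 8 h, a time that was not used to choose the genes. TTC12 was lower in shOTX2 than in control cells by -1.07 ± 0.31 (SE, log2), on all 3 arrays, and did not pass the threshold (limma adjusted p = 0.196). It was called without course 1 (limma adjusted p = 0.0252) and with a pseudocount of 64 (limma adjusted p = 0.0211), and the same sign was present at 0 h, where the difference was -1.46 and all 3 shOTX2 arrays were below the control array. LGI2 was lower by -0.67 ± 0.30 on all 3 arrays (limma adjusted p = 0.461). HKDC1 was higher by 0.75 ± 0.38 on all 3 arrays (limma adjusted p = 0.543). ARSI differed by 0.44 ± 0.40, SLCO4A1 by 0.23 ± 0.41 and GULP1 by 0.10 ± 0.38, with limma adjusted p from 0.771 to 0.951. None of the 6 genes was called, beside 0.403% of all genes, and the single control array limits the comparison. Within the shOTX2 arm at 8 h against 0 h, limma called 0 genes, 0.0%, with 462 at an unadjusted p under 0.05.

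Several probe sets read GULP1, TTC12 and HKDC1, and they share 1 gene each, so they are not independent of each other. At 24 h the probe sets were lower than in the course's own 0 h array in 43 of 45 probe set and course pairs, and at 48 and 96 h in 45 of 45. The same probe sets were lower in the control course in 8 of 15 at 24 h and 12 of 15 at 96 h. The GULP1 probe set 204237_at averaged 10.6 ± 2.86 at 96 h, against 144.8 ± 38.7 at 0 h, and 215913_s_at averaged 12.4 ± 7.42 at 96 h, against 91.3 ± 15.4 at 0 h. Probe set 223837_at averaged 10.4 ± 8.77 at 96 h, against 54.8 ± 26.9 at 0 h, and it had a half-fall time of 22.7 h. For GULP1 the 4 kept probe sets therefore show the same direction in every shOTX2 course at 24 and 96 h.

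The TTC12 probe sets other than the brightest were dimmer and had a smaller log2 change. Probe set 1554531_at averaged 14.4 ± 4.25 at 96 h, against 49.6 ± 1.86 at 0 h. Probe set 244571_s_at averaged 7.17 ± 2.08 at 96 h, against 43.8 ± 6.94 at 0 h, and 215598_at averaged 7.13 ± 3.28 at 96 h, against 32.3 ± 1.67 at 0 h. All were lower at 96 h than at 0 h in every shOTX2 course, and in the control course too. For HKDC1, 220585_at averaged 4.5 ± 4.52 at 96 h, against 101.3 ± 64.2 at 0 h, and 237323_at averaged 2.73 ± 1.18 at 96 h, against 26.3 ± 1.82 at 0 h. The probe set 237324_s_at averaged 6.07 ± 3.61 at 96 h, against 24.6 ± 17.7 at 0 h, and it was not lower at 24 h, where it averaged 26.2 ± 6.92. It held the 2 pairs that went the other way at 24 h, in courses 2 and 3. The probe sets left out as dim, 215915_at for GULP1 and 229239_x_at for SLCO4A1, averaged 4.43 ± 5.97 and 12.1 ± 7.99 at 0 h.

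**Figure D4:**
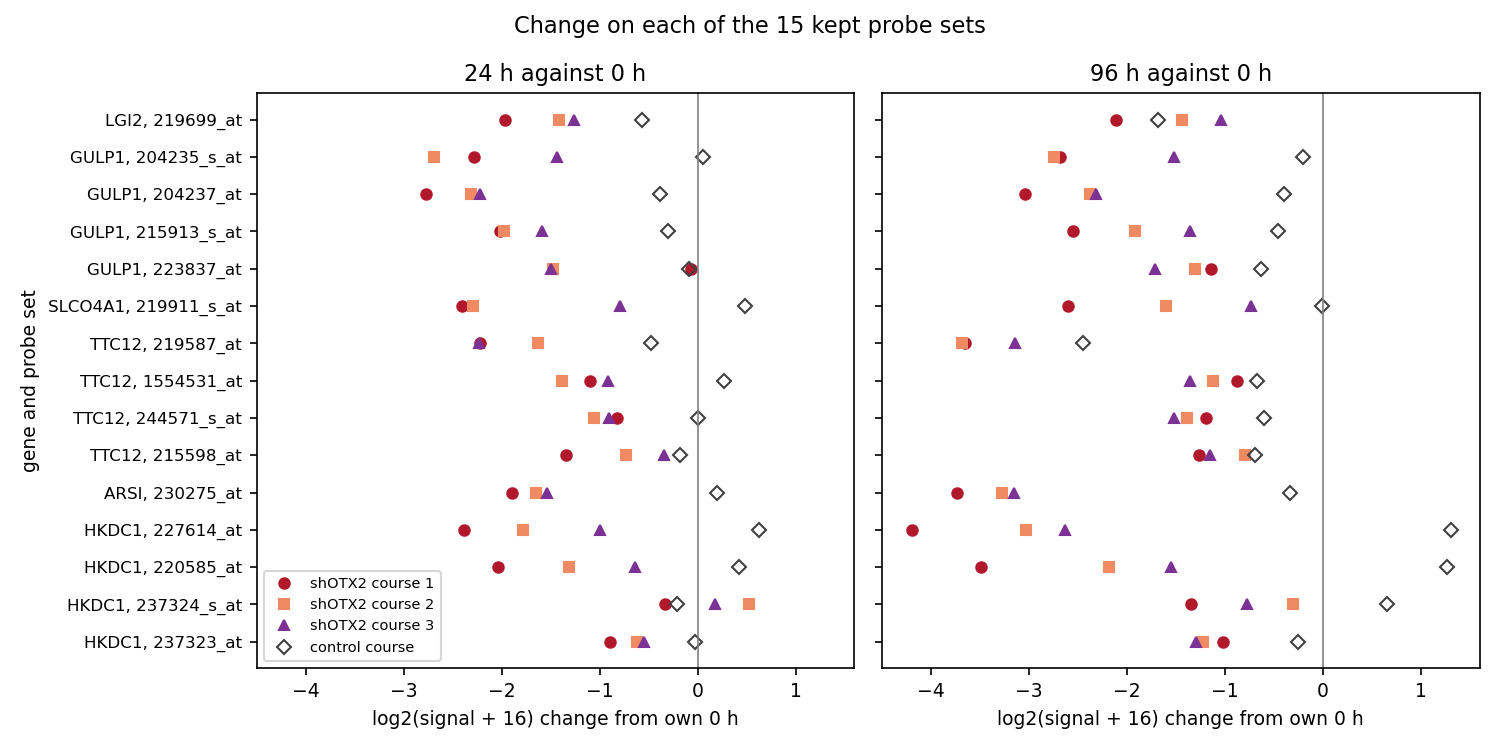
Change in log2(signal + 16) from the course's own 0 h array on each of the 15 kept probe sets at 24 h (left) and 96 h (right), with filled symbols for shOTX2 courses 1, 2 and 3 and an open diamond for the control course. All 45 shOTX2 symbols lie under 0 at 96 h, and 43 of 45 at 24 h, the exceptions being HKDC1 237324_s_at in courses 2 and 3.

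Related genes of each pathway or family were set beside the 6 genes, and 5 of 83 tested were called at 24 h, a share of 6.02%, close to the 6.14% of all genes. These calls, and those of the lists and chromosome neighbours below, are from the fit without the course as a block. With the block 2128 genes were called at 24 h, and the related genes and neighbours were not recounted. Of 19 tested engulfment genes around GULP1, 1 fell and 0 rose at 24 h, the faller being ITGAV at -0.44 (limma adjusted p = 0.0138). At 96 h 6 fell and 1 rose, with a median of -0.15, beside 0.00 over all genes. The falls were led by TYRO3, a receptor kinase for bridging proteins on dying cells (-1.83 ± 0.31 SE, limma adjusted p = 9.92e-05), ITGB5, an integrin subunit (-1.72 ± 0.21), and its partner ITGAV (-1.38 ± 0.10). ELMO1, a regulator of RAC1 in engulfment, fell by 0.92 on the log2 scale. Among receptors that GULP1 is known to bind, LRP1 differed by 0.05, and STAB1 and STAB2 by 0.10 and -0.06, none called. LRP1, STAB1 and STAB2 were dim, at 9.27, 10.4 and 13.7 in shOTX2 cells at 0 h. These means lie under the array medians, so a fall could hardly be seen. MEGF10 did not pass the filter.

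Among 20 tested dynein assembly and cilium genes around TTC12, 1 rose and 1 fell at 24 h, and 5 rose and 5 fell at 96 h, with a median of 0.13. RFX3, a transcription factor of ciliary genes, averaged 411.5 ± 22.4 at 96 h, against 130.8 ± 3.86 at 0 h (1.54 ± 0.13 SE, limma adjusted p = 4.86e-08), and was called at 24 h too (0.61, limma adjusted p = 0.0102). SPAG1, an assembly factor, was lower at 24 h (-0.95, limma adjusted p = 0.00855) and at 96 h (-1.03 ± 0.20). DNAAF9 rose by 1.36 ± 0.16, and DNAAF5, another assembly factor, fell by 1.2 on the log2 scale. The dynein chaperones RUVBL1 and RUVBL2 also fell, at -0.84 and -0.93. The list thus split evenly at 96 h. TTC12, at -3.49, lay below its lowest member, which reflects how TTC12 was chosen and was not tested.

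The transporters and thyroid hormone genes around SLCO4A1 numbered 11 tested genes, with 0 called at 24 h. At 96 h 4 fell and 1 rose, with a median of -0.07. SLC7A5, an amino acid transporter that also carries thyroid hormone, averaged 222.0 ± 32 at 96 h, against 977.4 ± 328 at 0 h (-2.02 ± 0.28 SE, limma adjusted p = 1.16e-05). Its partner SLC3A2 (-0.97), the transporter SLC16A10 (-1.84) and the receptor THRB (-1.46) fell, and the receptor THRA rose by 0.85. The other organic anion transporters were dim: SLCO2A1, SLCO2B1 and SLCO5A1 were tested, at changes of 0.04, 0.03 and -0.07 at 96 h, and none was called. SLCO1A2, SLCO1B1, SLCO1B3, SLCO1C1, SLCO3A1, SLCO4C1 and SLCO6A1 did not pass the filter, and their highest signal on any array was 22.

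The 7 tested genes of the LGI family and its receptors had 0 calls at 24 h, and 3 rose and 1 fell at 96 h, with a median of 0.64. ADAM22, the best known LGI receptor, averaged 104.2 ± 18.3 at 96 h, against 47.5 ± 6.19 at 0 h (0.91 ± 0.16 SE, limma adjusted p = 0.000155). LGI4, which acts in myelination of peripheral nerve, rose by 1.09 ± 0.34, and STX1A, a syntaxin of synaptic vesicle release, rose by 1.53 ± 0.29. ADAM23 fell, at -0.73 ± 0.19 (limma adjusted p = 0.00366), and ADAM11 differed by 0.48, not called. LGI1 and LGI3 did not pass the filter, with highest signals of 4.8 and 6.7 on any array. LGI2 at -1.53 was therefore opposite in sign to LGI4 and ADAM22 in shOTX2 cells. The control course had the same signs at 96 h against 0 h. There LGI4 read 40.7, against 19.9, ADAM22 46.4, against 34.3, and LGI2 7.3, against 58.7.

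Among 13 tested genes of glucose phosphorylation around HKDC1, 1 rose and 1 fell at 24 h, and 1 rose and 9 fell at 96 h, with a median of -0.56. HK2, the inducible hexokinase of tumours, averaged 119.7 ± 8.96 at 96 h, against 229.8 ± 42.1 at 0 h (-0.85 ± 0.15 SE, limma adjusted p = 0.000117), and was called at 24 h (-0.59, limma adjusted p = 0.0227). HK1, the housekeeping hexokinase and a neighbour of HKDC1 on chromosome 10, averaged 328.6 ± 54.8 at 96 h, against 541.1 ± 33.2 at 0 h (-0.70 ± 0.14). GPI, the next enzyme of glycolysis, fell by 1.05 on the log2 scale, and the glucose transporter SLC2A1 fell by 0.98. The neuronal glucose transporter SLC2A3 rose by 1.63 ± 0.14, to 161.7 ± 11.3 at 96 h, against 41.3 ± 4.37 at 0 h. HK3 did not pass the filter. HKDC1, at -3.29, lay below all 13, which reflects how it was chosen and was not tested.

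Among 13 tested sulfatase genes around ARSI, 0 were called at 24 h, and 3 rose and 2 fell at 96 h, with a median of -0.01. SULF1, an extracellular sulfatase of heparan sulfate, averaged 140.7 ± 23.2 at 96 h, against 11.5 ± 6.46 at 0 h (2.53 ± 0.34 SE, limma adjusted p = 7.49e-06). ARSF rose by 0.92 and IDS, a lysosomal sulfatase, by 0.62, while SGSH, another lysosomal sulfatase, fell by 0.71 and STS, the steroid sulfatase, fell by 0.56 on the log2 scale. SUMF1, which activates sulfatases in the endoplasmic reticulum, and its paralogue SUMF2 differed by -0.37 and -0.01, not called. ARSJ, the closest relative of ARSI, did not pass the filter, with a highest signal of 8.5 on any array. No gene of the 6 lists in the control course was called by limma, beside 0 of all 13903 genes, so this count does not set the lists apart. Over the 6 lists 41 of 83 genes were called at 96 h, 49.4%, beside 43.6% of all genes (22.5% lower and 21.1% higher). By list the share was 36.8% for engulfment, 10 of 20 genes for dynein assembly, 45.5% for transporters and thyroid hormone, 57.1% for the LGI family, 76.9% for glucose phosphorylation and 38.5% for sulfatases. In lists of 7 to 20 genes these shares are descriptions.

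**Figure D5:**
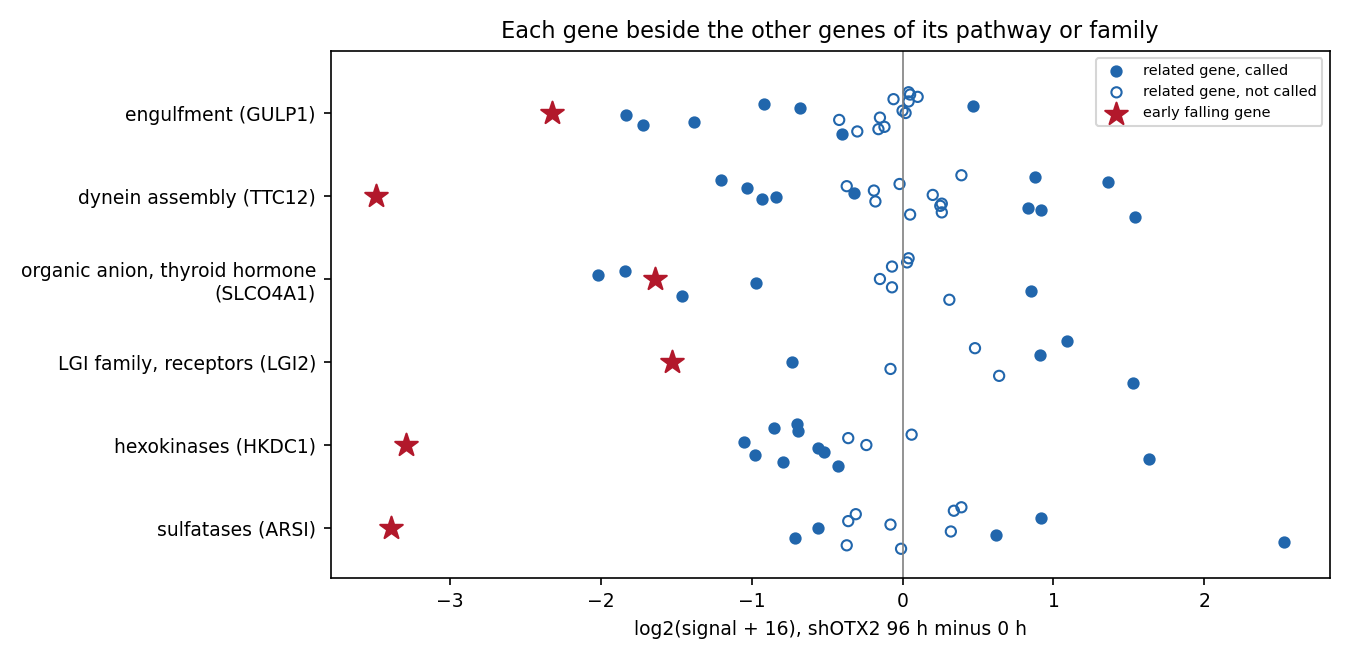
Change in log2(signal + 16) in shOTX2 cells at 96 h minus 0 h for each tested gene of the 6 related lists (filled where called by limma at an adjusted p under 0.05, open where not), with the early falling gene of each list as a red star. The stars of GULP1, TTC12, LGI2, HKDC1 and ARSI lie left of every related gene, and that of SLCO4A1, at -1.64, has SLC7A5 and SLC16A10 further left. The 6 genes were chosen for their low signal on the hairpin arrays, so the places of the stars reflect that choice and were not tested.

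The 2 nearest protein-coding genes on each side of each gene gave 14 tested neighbours on the chromosome. None was called at 24 h, beside 6.14% of all genes, and 5 of 14 were called at 96 h, 35.7%, beside 43.6% of all genes. At 96 h COL3A1 and COL5A2, collagen genes beside GULP1 on chromosome 2, rose by 2.04 ± 0.34 (SE, limma adjusted p = 7.73e-05) and 1.63 ± 0.21 (limma adjusted p = 4.1e-06). MRGBP beside SLCO4A1 (-0.65), HK1 beside HKDC1 (-0.70) and TCOF1 beside ARSI (-0.65) fell. NCAM1 and DRD2 beside TTC12 differed by 0.27 and -0.25, and SOD3, CCDC149 and SEPSECS beside LGI2 by -0.52, 0.17 and 0.26, none called.

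The genes whose pattern over the 24 arrays was most like each of the 6 were ranked by Pearson's r, as a description, since all arrays share the same courses and times. For GULP1 they were TMEM33 (r = 0.95), LRTM1 (0.94) and PHLPP2 (0.935). For TTC12 they were NSMCE4A (0.952), ILF2 (0.95) and UBE4A (0.948), which changed far less at 96 h, by -0.77, -0.82 and -0.79. For SLCO4A1 they were ZNF595 (0.926), LRTM1 (0.91) and RNF8 (0.909). For LGI2 they were MMGT1 (0.874), GNAL (0.865) and OSGIN1 (0.862). For HKDC1 they were UBAP1L (0.966), B4GALT5 (0.966) and GNGT2 (0.961), the last a cone transducin subunit that averaged 62.2 ± 22.3 at 96 h, against 636.2 ± 81.8 at 0 h. For ARSI they were CSPG5 (0.967), CCND3 (0.966) and ABLIM1 (0.965). CSPG5, a neural chondroitin sulfate proteoglycan, averaged 41.0 ± 8.81 at 96 h, against 336.7 ± 24.1 at 0 h, and CCND3, a G1 cyclin, averaged 60.3 ± 5.52 at 96 h, against 368.9 ± 147 at 0 h. Among the 6 genes themselves r over the 24 arrays ran from 0.64 for HKDC1 and LGI2 to 0.94 for HKDC1 and ARSI, and GULP1 and SLCO4A1, which share LRTM1, had 0.902.

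Array medians ran from 16.3 to 20.6 and were higher on the late shOTX2 arrays. They were 19.0 to 20.6 on the shOTX2 arrays at 48 and 96 h, against 16.3 to 18.4 from 0 to 24 h, without overlap. In the control course the median was 20.2 at 48 h and 17.6 at 96 h, against 17.1 at 0 h and 19.0 at 8 h. The ratio of the 3' to the 5' actin control probe sets, which follows RNA integrity and labelling, was 1.42 ± 0.084 in shOTX2 course 1, 2.07 ± 0.198 in course 2, 1.91 ± 0.057 in course 3 and 1.40 ± 0.086 in the control course (SD, n = 6 each). Course 1 also had the largest change at 96 h of SLCO4A1, LGI2, HKDC1 and ARSI. These genes had their highest 0 h signal in course 1 too. Their largest possible falls there were 3.12, 2.33, 4.74 and 4.04, against 2.57, 1.87, 3.92 and 3.48 in course 2. GULP1 also started highest in course 1, where its change of -2.68 was smaller than the -2.75 of course 2. The parts of start level and RNA quality in these changes were not tested. Of the 8 group 3 medulloblastoma markers, MYC, OTX2, IMPG2, CRX and NRL were present, and NPR3, GABRA5 and EYS had median signals of 4.4, 9.0 and 1.95 over the arrays, below the array medians. The summed signal of 11 immune and endothelial markers ran from 83.6 to 137.0 on the shOTX2 arrays at 48 and 96 h, against 73.7 to 99.4 at 0 and 8 h. Of 4 of these that were tested in shOTX2 cells at 96 h against 0 h, 1 was called higher and 0 lower. It was CD163 (1.09, limma adjusted p = 5.96e-05), which averaged 27.3 ± 5.77 at 96 h, against 4.4 ± 3.74 at 0 h. The summed signal of 10 mesenchymal markers ran from 665.1 to 1222 on the shOTX2 arrays at 48 and 96 h. At 0 and 8 h it ran from 127.2 to 188.0. In control cells the same sum ran from 238.8 to 439.5 at 48 and 96 h. It ran from 238.6 to 295.1 there at 0 and 8 h. In shOTX2 cells at 96 h against 0 h, limma called 5 of 8 tested mesenchymal markers higher and 0 lower, beside 21.1% and 22.5% of all genes. COL1A1, COL3A1 and PDGFRB led the sum, and COL1A1 alone averaged 542.4 ± 239 at 96 h (SD, n = 3). DCN, THY1 and ACTA2 differed by -0.14, -0.22 and 0.15, none called, and LUM and FAP stayed under 20 on every array. The higher sum in shOTX2 cells stands beside the late values of the 6 genes, and its part in them was not tested.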

How the data were processed

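The files hold 24 Affymetrix U133 Plus 2.0 arrays of D425 cells: 18 shOTX2 arrays (3 courses of 6 times) and 6 control arrays. As deposited, each value is a linear MAS5 signal intensity, made by the authors with MAS5 and GCOS per the submitters' processing notes, whose versions no source used here gives. Its trimmed mean was 100.011 to 100.014 on every array, with 2% trimmed at each end, so arrays had been scaled to a common level, which hides any change common to most genes. Arrays have no read depth, and their number limits the precision. The deposited table holds no detection calls.

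Gene names came from the platform annotation (41097 with 1 symbol, 1801 with several, 11777 not listed), with symbols updated by Entrez ID where possible. The filter kept the 33803 probe sets above the array median on 3 or more arrays, and a gene is its kept probe set of highest mean log2(signal + 16), which gave 13903 genes. limma 3.58.1 in R 4.3.3 fitted the 12 group means over all 24 arrays, with eBayes and a trend and 12 residual degrees of freedom, all from the shOTX2 groups. A gene was called at a Benjamini-Hochberg adjusted p under 0.05 over all genes, two-sided, and the fit was tested on simulated data. For the 6 genes the tests were the control course at 48 and 96 h against 0 and 8 h, and shOTX2 against control at 8 h. For OTX2, related genes, neighbours and counts over all genes, the shOTX2 times against 0 h were tested too. Half-fall times, onsets and likeness are descriptions.

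The members and lists were chosen with earlier results of these data known. The named-gene rule takes the 6 genes and OTX2, the 3 most similar genes of each, the genes next to each in rank at 24 and 96 h, up to 4 called genes of each related list, close family members and the nearest 2 protein-coding genes on each side; other genes named were chosen after their values were seen. Lists cover engulfment, axonemal dynein assembly, organic anion and thyroid hormone transport, the LGI family, glucose phosphorylation and sulfatases, plus group 3 medulloblastoma, immune and endothelial, and mesenchymal markers. Promoters are from RefSeq, GRCh38.p14, matched by symbol for 5 of 6 genes.

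The course number pairs shOTX2 arrays, since the labels describe independent courses. The main fit left this pairing out, and the course entered as a block only in the alternatives. Residuals of arrays of one course correlated in all 45 pairs of times (r from 0.154 to 0.553). Between courses the median r was 0.164 for courses 2 and 3. It was -0.325 for courses 1 and 2 and -0.303 for courses 1 and 3. Alternatives changed the pseudocount, filter, scaling, probe set rule, trend, block, arrays and thresholds.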

Additional observations from a re-analysis of the deposited data

Results flagged for a closer look

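The differences of HKDC1 between 96 h and 0 h had opposite signs in the arms on the probe set that represents it. Of its 4 kept probe sets 1, 237323_at, was lower in the control course too, at -0.25. Its change in log2(signal + 16) was -4.19 to -2.64 in the 3 shOTX2 courses and 1.3 in the control course, and shOTX2 minus control was -4.59. The difference was not tested, because the shOTX2 contrast chose the gene and the control arm has 1 array per time. In the control course the 48 h array, at 94.6, was the lowest and the 96 h array, at 309.5, the highest.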

How the results depend on the processing

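The counts of genes called moved with the samples left out and with the block. Leaving out 1 control array or 1 shOTX2 course at a time gave 0 to 19 calls for late against early control arrays. Leaving out 1 shOTX2 course of 6 arrays gave 11 to 824 for the arms at 8 h, and 0 to 99, 87 to 778 and 2668 to 4851 for shOTX2 at 16, 24 and 48 h against 0 h. With the course as a replicate block, late against early control arrays gave 88 calls, shOTX2 gave 794 calls at 16 h and 2128 at 24 h, and TTC12 and LGI2 were called in the control course. The block changed no other call of the 6 genes. A pseudocount of 64 gave 1 call for late against early control arrays. With each array centred on its median, the median of all genes moved by -0.119 at 96 h, and 2334 genes were higher and 3751 lower, against 2932 and 3126 as reported. At 48 h 35.6% of calls were then higher, against 48.8%. The 8 h counts of called genes in shOTX2 cells stayed at 0 in every alternative.

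The sign of some uncalled differences turned. Late against early in the control course, leaving out 1 control array or shOTX2 course at a time gave -0.70 to 0.10 for GULP1, -0.07 to 0.91 for SLCO4A1, -0.35 to 1.21 for HKDC1 and -0.31 to 0.28 for ARSI. For the arms at 8 h, leaving out 1 shOTX2 course gave -0.22 to 0.37 for GULP1. Of 216 recomputed changes of the 6 genes (18 changes under 12 alternatives), 193 moved by less than the spread between courses, 23 by more, and 0 changed sign.

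The half-fall time was 22.7 h on GULP1 223837_at, 16.9 and 14.6 h on TTC12 1554531_at and 244571_s_at, and 15.8 h on HKDC1 237323_at. ARSI had 30.5 h with a pseudocount of 4 and 20.6 h with 64. A threshold of 0.5 log2 put 16 of 18 onsets by 16 h. Of the 3 most similar genes, over the 18 shOTX2 arrays 1 remained for GULP1 and 0 for TTC12, LGI2, HKDC1 and ARSI, and by Spearman's rho 1 remained for GULP1, TTC12, LGI2 and ARSI each. The causes were not tested. The added alternative, every kept probe set on its own, was chosen after seeing the data and called none of the 6 genes. Signals near the array median have little room to fall: LGI2 had the least, and ARSI and TTC12 used 91.9 to 94.0% and 80.6 to 97.2% of theirs by 96 h in the shOTX2 courses, against 60.7 to 90.7% for LGI2.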

Other observations

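At 0 h, before any doxycycline, TTC12 already differed between the arms. Its signal was 200.2, 208.5 and 222.9 in the shOTX2 courses, against 606.2 in the control course. HKDC1 had 410.4, 226.9 and 186.8 in the shOTX2 courses, against 115.9 in the control course at 0 h. The differences were -1.46 and 1.06 on the log2 scale, given with no test, and 63 of 13903 genes, 0.453%, were called by limma in the same contrast.

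TTC12 and LGI2 were low on the 96 h control array, at 97.7 and 7.3, whereas the control 48 h array read 600.5 and 24.9. RFX3, the ciliary transcription factor of the TTC12 list, was higher at 96 h than at 0 h in both arms, at 411.5 ± 22.4 (SD, n = 3) in shOTX2 cells and 302.0 in control cells at 96 h, against 130.8 ± 3.86 in shOTX2 cells and 95.6 in control cells at 0 h. In the control course the 48 and 96 h arrays of RFX3 differed from 0 and 8 h by 0.54 on the log2 scale, not called (limma adjusted p = 0.386).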
